A study of Homo sapiens with 6 samples.

Results

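The collagen genes encode the alpha chains of the collagens and were taken as all annotated symbols made of COL, a number, A and a number, with antisense genes left out. Each gene was read from its brightest probe set over the 6 arrays, where a probe set is a group of short probes summarised as 1 signal. This gave 43 collagen genes among the 19775 genes measured, from 112 collagen probe sets. A reference gene table lists 44 such genes, and the remaining gene, COL17A1, was not analysed here. Affymetrix HG-U133 Plus 2.0 arrays were run on the 1833 subline of MDA-MB-231, a human breast cancer line, and 1833 is known for growth in bone. The 3 arrays labelled S153E-RKIP came from 1833 cells transduced with a lentiviral vector for S153E-RKIP, a mutant of the Raf-1 inhibitor RKIP, with selection in puromycin at 0.5 µg/ml. The 3 control arrays came from 1833 cells with the vector as control, and all 6 samples carry the same treatment note, which does not say whether the control cells were kept in puromycin. The sources used here do not state which promoter drives the transgene, or whether each line is a clone or a pool. The replicates are called biological with no account of how they were made, so p-values measure the spread of these samples alone, which may be technical. Levels are given as log2 RMA signals and differences as S153E-RKIP minus control on that scale.

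Collagens are secreted or membrane-bound proteins in which alpha chains wind into a rope-like helix rich in glycine and proline. Fibrillar collagens form the cables of bone, skin and tendon. Type IV chains form the sheet of basement membranes, and other classes decorate fibrils, link layers or span the cell membrane. In tumours, collagens are made by cancer cells as well as by stromal cells, and bone matrix is largely type I collagen.

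Upstream sequence was taken from the RefSeq promoter table (GRCh38.p14), which holds 31 of the 43 genes, each as 250 bases before and 50 bases after the start. COL8A1, COL1A1 and COL6A1 have no entry there. Their signals lay above the median of all genes, so the comparison by signal below lacks them. COL4A1 and COL4A2, whose proteins form 1 molecule, lie head to head and share the stretch between their starts. It is shown because their array values are compared below. COL13A1 is shown as the collagen gene with the brightest probe set, and COL12A1 as the brightest fibril-associated one. Capitals mark matches to a CCAAT box (CCAAT), a GC box (GGGCGG) or a TATA box (TATAAA) on either strand.
COL4A1 and COL4A2, between the starts, chr13:110307158-110307283, plus strand: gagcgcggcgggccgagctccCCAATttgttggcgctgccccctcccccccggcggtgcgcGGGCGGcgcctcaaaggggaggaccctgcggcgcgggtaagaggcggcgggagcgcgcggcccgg
COL13A1, before the start, chr10:69801656-69801905, plus strand: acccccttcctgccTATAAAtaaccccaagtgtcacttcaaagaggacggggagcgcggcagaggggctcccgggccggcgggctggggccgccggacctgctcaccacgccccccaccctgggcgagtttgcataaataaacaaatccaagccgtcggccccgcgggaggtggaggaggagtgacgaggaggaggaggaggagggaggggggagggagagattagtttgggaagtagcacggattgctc
COL12A1, before the start, chr6:75206054-75206303, minus strand: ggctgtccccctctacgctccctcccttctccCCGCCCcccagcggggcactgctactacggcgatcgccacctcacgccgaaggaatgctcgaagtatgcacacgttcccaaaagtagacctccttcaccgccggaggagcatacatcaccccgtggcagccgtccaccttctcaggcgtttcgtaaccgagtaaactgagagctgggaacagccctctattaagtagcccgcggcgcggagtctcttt
The stretch between COL4A1 and COL4A2 is 126 bases long, holds 80.2% G and C, and has 1 CCAAT box and 1 GC box. The COL13A1 stretch has 1 TATA box and the COL12A1 stretch has 1 GC box. Over the whole 300-base windows, a GC box was found in 17 of the 31 collagen promoters (54.8%), against 44.5% of all 27305 promoters. A CCAAT box was found in 8 collagen promoters (25.8%), against 35.7% of all, and a TATA box in 4 (12.9%), against 12% of all. The median G and C content was 66.7% in the collagen promoters and 58.3% in all promoters. Among the 11 collagen promoters whose gene had a signal above the median of all genes, 8 held a GC box (72.7%), and among the other 20 it was 9 (45%). The windows of type IV genes that lie head to head overlap, so they are not separate units. The boxes between COL4A1 and COL4A2 count for both genes. COL10A1, a gene of growing cartilage, had the low content of 32.3%, and COL18A1 stood at 86.7%. A match describes these letters only, and factor binding was not measured.

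The labels were checked on the genes they name. PEBP1, which encodes RKIP, had signals of 11.74, 11.64 and 11.61 on the S153E-RKIP arrays and of 11.77, 11.73 and 11.77 on the control arrays, with a difference of -0.093 (SE 0.058, limma adjusted p = 0.473). The source name of the S153E-RKIP samples instead speaks of shRNA against HMGA2, for which the difference was -0.023 (SE 0.058, limma adjusted p = 0.882). Whether the PEBP1 probes lie within the introduced sequence was not analysed here, and probes outside it check nothing. Neither transcript passed the test, so the direction of every difference rests on the label S153E-RKIP. All 5 markers known to be high in MDA-MB-231 (VIM, CD44, CAV1, KRT18 and EGFR) lay above the median of all genes (6.64). Their summed linear signal was 43218 to 44728 on the S153E-RKIP arrays and 46226 to 46591 on the control arrays. CAV1 and EGFR each differed by -0.26 with the groups apart, short of the threshold (limma adjusted p = 0.0685 and 0.110). CD44 went the other way, by 0.13 with the groups apart (limma adjusted p = 0.293), while VIM differed by -0.057 and KRT18 by -0.066. Of 4 markers known to be low in this line, CDH1 (4.18) and PGR (4.04) lay below that median, and ERBB2 (7.71) and ESR1 (6.65) above it, with sums of 336 to 356 on the S153E-RKIP arrays and 338 to 349 on the control arrays. All 7 fibroblast markers lay at or below the median of all genes, with LUM at 3.57 and POSTN at 3.70. Their summed linear signal was 323 to 343 on the S153E-RKIP arrays and 315 to 323 on the control arrays. For blood cell markers the sum was 227 to 240 on the S153E-RKIP arrays and 196 to 210 on the control arrays. For osteoblast markers it was 84.3 to 87.8 on the S153E-RKIP arrays and 75.6 to 85.2 on the control arrays, and for endothelial markers 209 to 273 on the S153E-RKIP arrays and 220 to 247 on the control arrays. An array has no true zero, and the part of these sums in the collagen values was not tested.

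The comparison asked which collagen genes differ in cells labelled S153E-RKIP. Of the 43 genes, COL8A1 fell and no other passed the test, a limma adjusted p under 0.05 over all 19775 genes. The 1 called gene is 2.33% of the collagen genes, beside 376 called genes (1.90%) over the whole array. In the lower direction the background was 240 genes (1.21%). The split over all genes varied with normalisation, with 116 higher and 355 lower at equal array medians. After quantile normalisation again it was 151 higher and 183 lower. No collagen gene was called higher in limma, against 136 of all genes (0.688%), and 5 (11.6%) had an unadjusted p under 0.05 in that direction, beside 7.75% of all genes. Counting both directions, 6 collagen genes had an unadjusted p under 0.05 (14%), beside 15.7% of all genes, and in 6 the groups did not overlap (14%), beside 20.1% of all genes. The shares over both directions lie near the background. Of the 43 differences 24 were above 0 and 19 below, from -0.32 to 0.26, with a median of 0.021, while the median over all genes was 0.010.

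**Figure D1:**
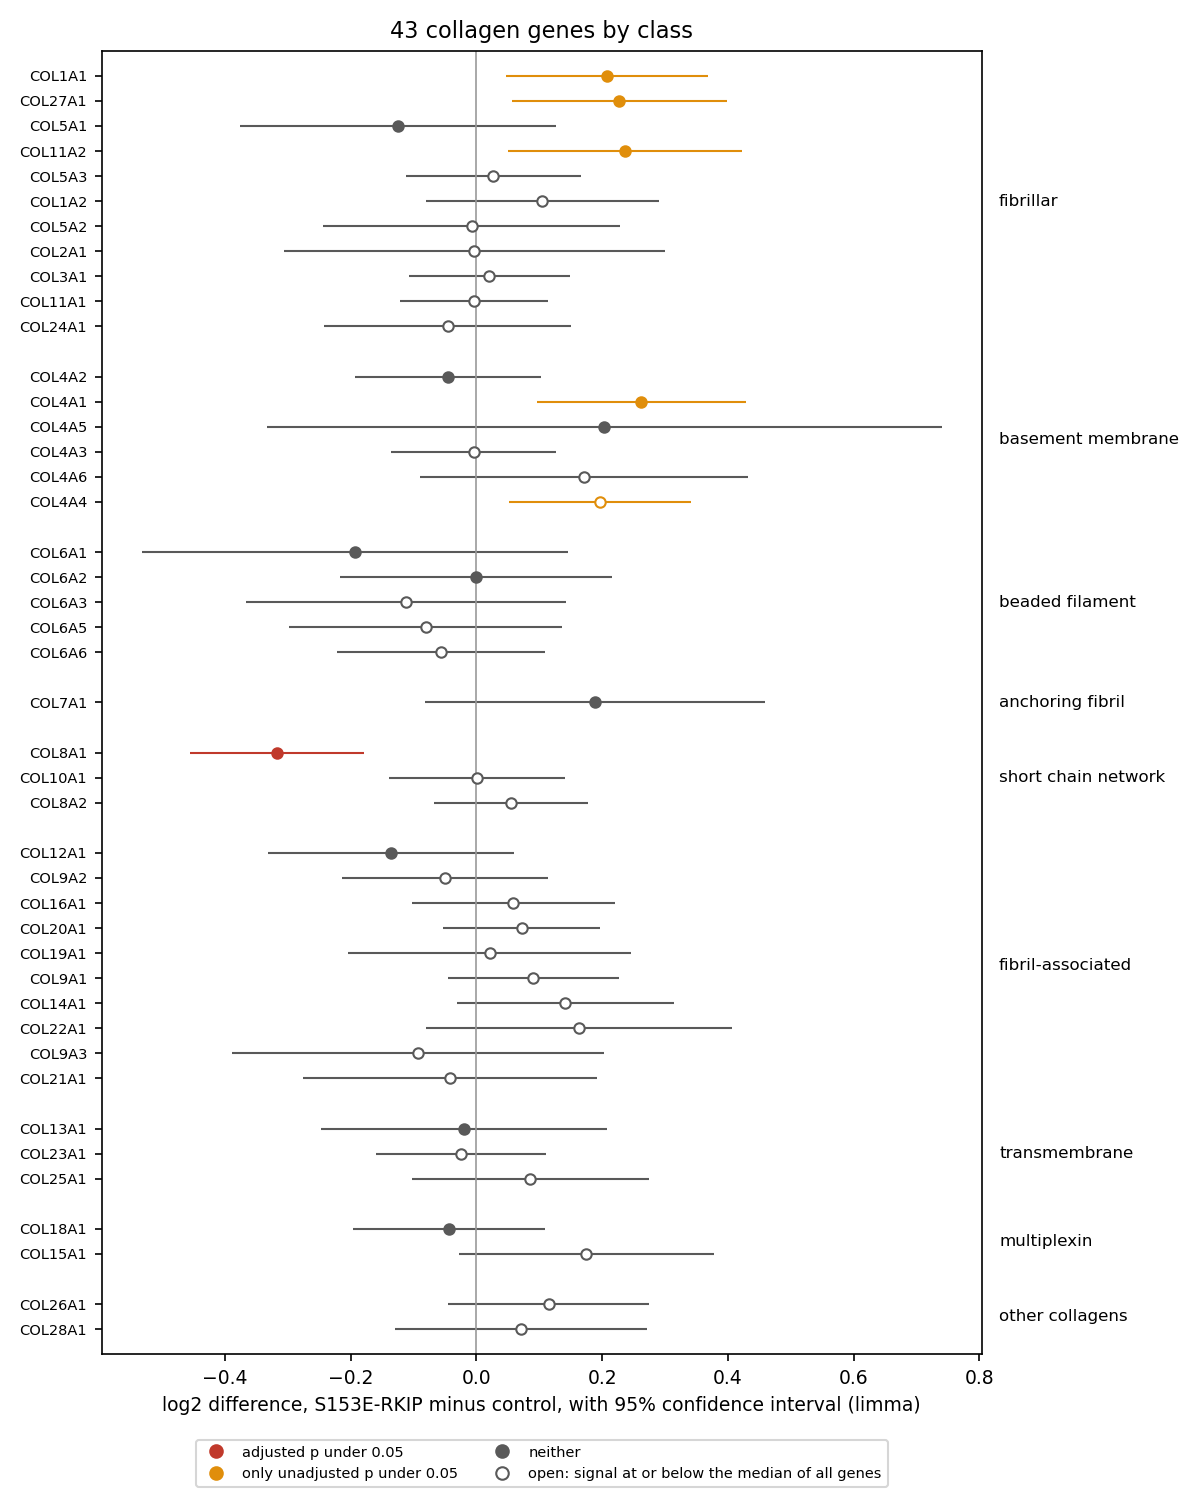
Log2 difference, S153E-RKIP minus control, of each of the 43 collagen genes, with its 95% confidence interval from limma, grouped by class and ordered by mean signal within it. Red marks an adjusted p under 0.05, orange only an unadjusted p under 0.05, and open circles a signal at or below the median of all genes. COL8A1 is the only red point, at -0.32, and the 5 orange points lie between 0.20 and 0.26.

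COL8A1 encodes a chain of type VIII collagen, a short-chain collagen that forms sheet-like networks in the cornea and in vessel walls. Its probe set 226237_at had signals of 11.14, 11.24 and 11.28 on the S153E-RKIP arrays and of 11.51, 11.52 and 11.58 on the control arrays. All 3 S153E-RKIP arrays were lower than all 3 control arrays. The mean was 11.22 ± 0.073 on the S153E-RKIP arrays and 11.54 ± 0.037 on the control arrays (SD, n = 3 each), a fall of 1.25-fold. On the log2 scale the difference was -0.32, with an SE of 0.061 and a 95% interval of -0.46 to -0.18 (adjusted p = 0.0417 in limma). Read from this probe set, 226 of the 240 genes called lower, whose median difference was -0.47, fell by more. The mean of all COL8A1 probe sets gave -0.61. The other called genes were not ranked by that rule, so this value is not set against that median.

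The other probe sets of COL8A1 were dimmer and differed by more. Probe set 214587_at had 7.05, 6.87 and 7.20 on the S153E-RKIP arrays and 7.86, 7.55 and 7.85 on the control arrays. Its difference was -0.71 (95% confidence interval -0.96 to -0.46, limma adjusted p = 0.0219 over all probe sets). Probe set 221152_at had 4.82, 5.02 and 5.11 on the S153E-RKIP arrays and 5.90, 5.46 and 6.04 on the control arrays. Its difference was -0.81 (95% confidence interval -1.14 to -0.49, limma adjusted p = 0.0399 over all probe sets). In that same fit 226237_at had an adjusted p of 0.0678 in limma. The groups were apart in all 3 probe sets, and where each lies on the transcript was not analysed here. The difference kept its sign under all 16 other settings tried, from -0.61 to -0.28, with limma adjusted p from 0.00321 to 0.184, and the call was lost under 10 of them. These include leaving out any 1 of the 6 arrays, where the adjusted p ran from 0.0656 to 0.184 in limma.

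**Figure D2:**
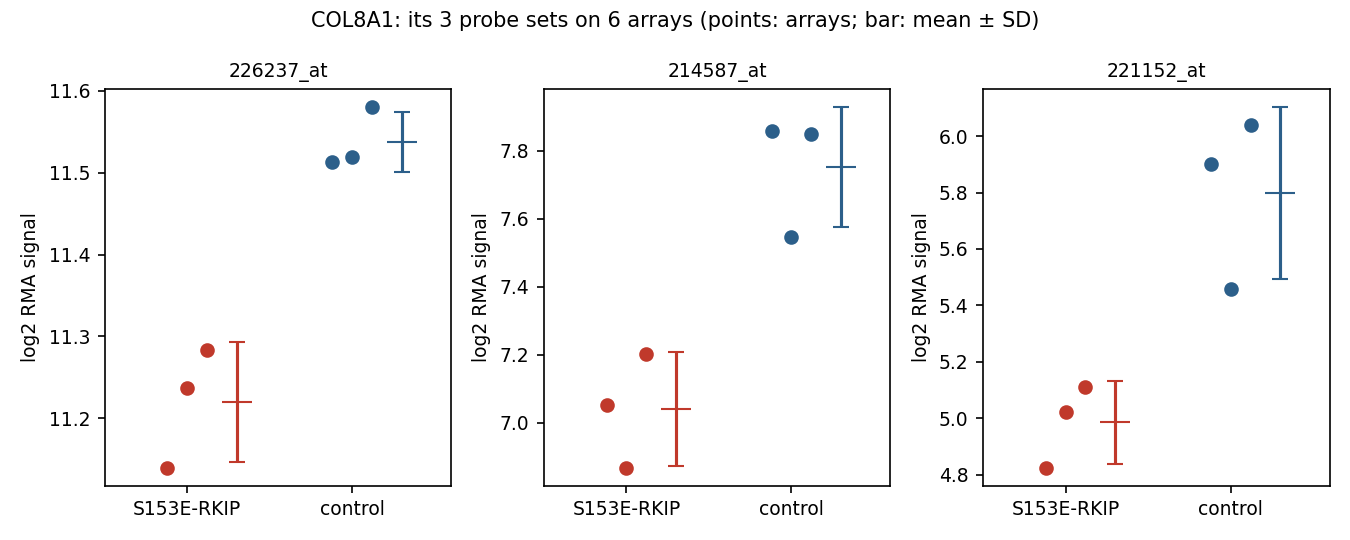
Log2 RMA signal of the 3 COL8A1 probe sets on each array, with S153E-RKIP in red on the left and control in blue on the right of each panel (points are arrays, bars are mean ± SD, n = 3 each, and each panel has its own axis). In every panel the 3 S153E-RKIP arrays lie below the 3 control arrays, and the brightest probe set, 226237_at, has the smallest difference.

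The other short-chain genes lay below the median signal. COL8A2, which encodes the partner chain of type VIII collagen, differed by 0.055, and COL10A1 by 0.0014, with array signals from 5.03 to 5.28 over both genes. On each array the COL8A1 signal was set against the COL8A2 signal as a log2 difference, whose size depends on the probes, so that only its change between groups was read. It was 6.02, 6.13 and 6.19 on the S153E-RKIP arrays and 6.48, 6.42 and 6.55 on the control arrays. The change was -0.37, and the groups were apart, with an exact two-sided permutation p of 0.1, the smallest that 3 arrays against 3 allow. It was 0.233 after Benjamini-Hochberg adjustment over the 7 chain pairs examined. Because COL8A2 was dim and nearly flat, this change largely repeats the COL8A1 values and is no separate evidence.

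Type IV collagen of most basement membranes is built from the COL4A1 and COL4A2 chains, and neither gene passed the test. COL4A1 had signals of 7.93, 8.11 and 8.12 on the S153E-RKIP arrays and of 7.84, 7.83 and 7.71 on the control arrays. Its difference was 0.26 (SE 0.073, 95% interval 0.096 to 0.43, adjusted p = 0.144 in limma), the highest of the 43 genes, with no overlap between the groups but short of the threshold. Its other probe set differed by 0.060. COL4A2 had 8.64, 8.79 and 8.81 on the S153E-RKIP arrays and 8.84, 8.77 and 8.76 on the control arrays. Here the groups overlapped, and the difference was -0.045 (SE 0.065, limma adjusted p = 0.767). Set against each other within an array, COL4A1 minus COL4A2 was -0.71, -0.68 and -0.68 on the S153E-RKIP arrays and -1.0, -0.94 and -1.05 on the control arrays. The change was 0.31, with an exact permutation p of 0.1 (0.233 adjusted over the 7 pairs), and the groups were apart. It rests on the brightest probe sets. The other ones, 211981_at of COL4A1 and 211966_at of COL4A2, differed by 0.060 and 0.0039, each with overlapping groups, and were not compared as a pair.

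COL4A3 and COL4A4, which encode chains of the kidney and other specialised basement membranes, also lie head to head. COL4A4 was dim, at 4.21, 4.08 and 4.10 on the S153E-RKIP arrays and 3.93, 3.87 and 3.99 on the control arrays. The groups did not overlap, the difference was 0.20 (SE 0.063, limma adjusted p = 0.198), and its other probe sets differed by 0.0096 and -0.11. COL4A3 differed by -0.0042. COL4A3 minus COL4A4 changed by -0.20 (exact permutation p = 0.1, adjusted 0.233), but both probe sets were dim, with mean signals of 4.39 and 4.03, and nothing is read from it. COL4A5, whose mutation causes Alport syndrome, spread widely, with 6.44, 7.43 and 7.05 on the S153E-RKIP arrays and 6.73, 7.05 and 6.52 on the control arrays (difference 0.20, SE 0.23, limma adjusted p = 0.706). The third head-to-head pair, COL4A5 and COL4A6, changed by 0.032 (exact permutation p = 1). The 6 type IV genes had a median difference of 0.18, beside 0.010 over all genes and 0.053 over genes at or below the median signal. That value lies between COL4A6 (difference 0.17, mean signal 4.17, overlapping groups) and COL4A4. Both were dim, so no rise of the type IV genes as a family is read from it.

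The 11 fibrillar genes had a median difference of 0.021, and none passed the test in limma. Of the 11, 3 had an unadjusted p under 0.05, all 3 higher. Over all genes the share was 15.7% in both directions and 7.75% in the higher one, and a list this short gives an imprecise share. COL1A1, the main chain of type I collagen, had 8.40, 8.39 and 8.21 on the S153E-RKIP arrays and 8.07, 8.17 and 8.15 on the control arrays. The groups were apart, with a difference of 0.21 (SE 0.070, limma adjusted p = 0.215). That probe set, 217430_x_at, carries the suffix _x, which marks probes that may bind other transcripts too. The other 4 probe sets of COL1A1 had mean signals of 3.70 to 6.06 and differences of 0.0083 to 0.16.

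COL27A1, a fibrillar chain known from cartilage, had 7.75, 8.0 and 7.90 on the S153E-RKIP arrays and 7.60, 7.71 and 7.66 on the control arrays. The lowest S153E-RKIP array was just above the highest control array, and the difference was 0.23 (SE 0.075, limma adjusted p = 0.205). Its 5 probe sets differed by -0.059 to 0.26. COL11A2, a minor chain of cartilage fibrils, had 6.81, 6.97 and 6.71 on the S153E-RKIP arrays and 6.53, 6.56 and 6.69 on the control arrays. The gap between the groups was narrow, the difference was 0.24 (SE 0.081, limma adjusted p = 0.220), and the other probe set differed by 0.34. The 8 remaining fibrillar genes had array signals of 3.23 to 7.41 and differences from -0.12 in COL5A1, which helps to set fibril width, to 0.11 in COL1A2, the partner of COL1A1.

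**Figure D3:**
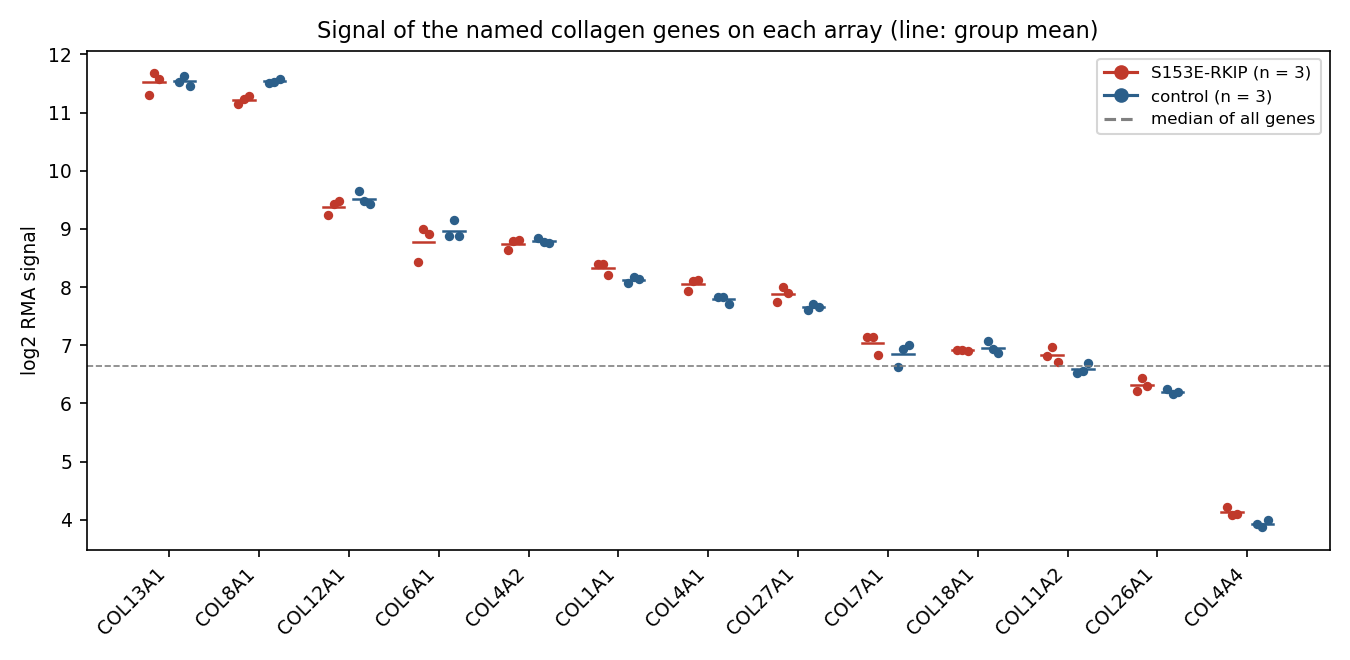
Log2 RMA signal of the 13 collagen genes named by rule, on each array, ordered by mean signal, with S153E-RKIP in red on the left and control in blue on the right of each gene (points are arrays, lines are group means, the dashed line is the median of all genes, 6.64). COL13A1 and COL8A1 stand near 11 to 12, and only COL8A1 among these bright genes has its S153E-RKIP arrays clear below its control arrays.

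COL13A1, a collagen that spans the cell membrane, had a bright probe set with overlapping groups, at 11.30, 11.67 and 11.58 on the S153E-RKIP arrays and 11.53, 11.64 and 11.45 on the control arrays. The difference was -0.020 (SE 0.099, limma adjusted p = 0.946). The other measured transmembrane genes, COL23A1 and COL25A1, had array signals of 4.51 to 5.95 and differences of -0.025 and 0.086. COL12A1, a fibril-associated collagen that coats type I fibrils, had 9.24, 9.43 and 9.48 on the S153E-RKIP arrays and 9.65, 9.47 and 9.44 on the control arrays. Its groups overlapped, with a difference of -0.14 (SE 0.086, limma adjusted p = 0.475). All 5 of its probe sets had a difference below 0, and 2 of them had an unadjusted p under 0.05, both at -0.26, with limma adjusted p of 0.162 and 0.289. The 9 other fibril-associated genes lay between 3.6 and 6.50 and differed by -0.093 (COL9A3) to 0.16 (COL22A1).

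COL6A1, a chain of the beaded filaments around cells, had 8.42, 8.99 and 8.91 on the S153E-RKIP arrays and 8.87, 9.16 and 8.88 on the control arrays. S153E-RKIP replicate 1 stood below the other arrays, and the difference was -0.19 (SE 0.15, limma adjusted p = 0.553). Without that array the COL6A1 difference was -0.017. Its 8 probe sets split into 4 above 0 and 4 below, from -0.19 to 0.24. Of the COL6A1 probe sets, only 212940_at, at 0.24, had an unadjusted p under 0.05, with the groups apart (limma adjusted p = 0.167 over all probe sets). Its partner COL6A2 had 6.99, 7.17 and 7.13 on the S153E-RKIP arrays and 7.22, 7.17 and 6.90 on the control arrays, with overlapping groups. The 4 remaining type VI genes, COL6A2 among them, had differences from -0.11 (COL6A3) to 4.13e-05 (COL6A2). In the 3 other chain pairs the groups overlapped. COL6A1 minus COL6A2 changed by -0.19 (exact permutation p = 0.3), COL1A1 minus COL1A2 by 0.10 (exact permutation p = 0.3), and COL5A1 minus COL5A2 by -0.12 (exact permutation p = 0.6).

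COL7A1, the collagen of the anchoring fibrils of skin, had 7.15, 7.14 and 6.84 on the S153E-RKIP arrays and 6.63, 6.93 and 7.0 on the control arrays. The groups overlapped (difference 0.19, SE 0.12, limma adjusted p = 0.472), and its other probe set differed by -0.031. COL18A1, the precursor of endostatin, had 6.91 on each of the 3 S153E-RKIP arrays and 7.07, 6.93 and 6.86 on the control arrays. Its difference was -0.043 (limma adjusted p = 0.789), and the related COL15A1 differed by 0.17 (SE 0.089, limma adjusted p = 0.381). COL26A1 had 6.22, 6.43 and 6.30 on the S153E-RKIP arrays and 6.25, 6.16 and 6.20 on the control arrays (difference 0.11, SE 0.070, limma adjusted p = 0.458). COL28A1 stayed between 3.74 and 4.09 on all arrays and differed by 0.071. Over the 30 collagen genes not named by rule, differences ran from -0.12 to 0.20 and the smallest limma adjusted p was 0.381. Precision is limited by the number of arrays, with a median SE of 0.072 for the log2 differences of all genes.

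Over all genes, differences varied with signal. Genes above the median signal had a median difference of -0.029, with 38.4% above 0, and genes at or below it had 0.053, with 68.9% above 0. Of the collagen genes, 14 lay above the median signal, and 7 of them had a difference above 0. The other 29, with 17 above 0 (58.6%), had a median of 0.021. Of the 6 collagen genes with an unadjusted p under 0.05, 5 lay above the median signal, beside 1813 of 3098 such genes over the whole array.

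**Figure D4:**
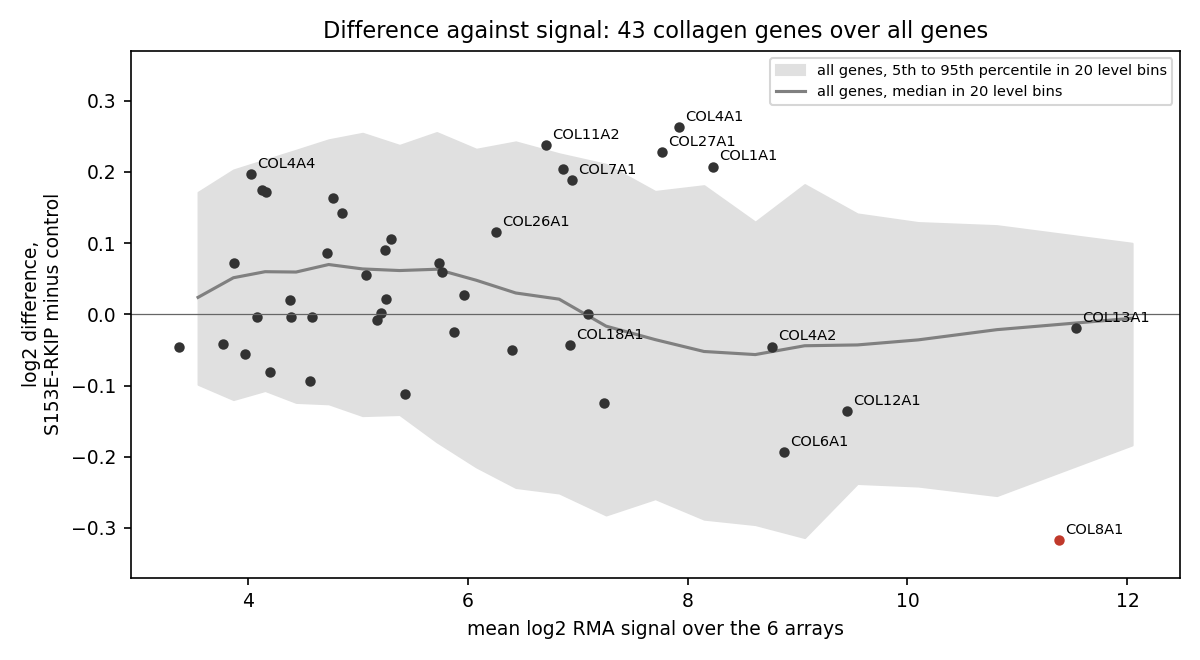
Log2 difference, S153E-RKIP minus control, against mean log2 RMA signal over the 6 arrays for the 43 collagen genes (points), over the median (line) and the 5th to 95th percentile (grey) of all genes in 20 bins of signal. COL8A1, in red, lies at -0.32, below the grey band, COL4A1, COL27A1, COL1A1 and COL11A2 lie above it, and the other 38 genes lie within it.

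The genes that make, bind or cut collagen were read from lists of modifying enzymes, secretion factors, propeptide proteases, crosslinking enzymes, receptors and cleaving proteases. Of 54 genes listed, 52 had a probe set of their own. LOX fell, MMP1 rose, and the other 50 did not pass the test in limma, beside 1.90% of all genes called. Of the 52 differences, 38 were above 0 (73.1%), beside 53.6% of all genes, and the median was 0.055, beside 0.010. Of the 52 genes, 24 were at or below the median signal, where 68.9% of all genes had a difference above 0.

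LOX, lysyl oxidase, starts the crosslinks between collagen chains. It had 8.35, 8.69 and 8.71 on the S153E-RKIP arrays and 9.15, 9.17 and 9.21 on the control arrays. All S153E-RKIP arrays were lower, with a difference of -0.59 (SE 0.097, limma adjusted p = 0.0223). The call held without S153E-RKIP replicate 1 and was lost without any of the other arrays, with limma adjusted p from 0.0126 to 0.124 over these 6 settings. MMP1, the interstitial collagenase that cuts fibrillar collagen, had 14.31, 14.13 and 14.07 on the S153E-RKIP arrays and 13.82, 13.72 and 13.78 on the control arrays. All S153E-RKIP arrays were higher, by 0.40 (SE 0.074, limma adjusted p = 0.0387), or 1.32-fold. That call was lost without any 1 of the 6 arrays, with limma adjusted p from 0.0591 to 0.166.

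Of the 8 collagen-cleaving proteases 7 had a difference above 0, and 6 were at or below the median signal. Besides MMP1, 3 had an unadjusted p under 0.05, beside 15.7% of all genes. MMP9, a gelatinase, had 6.39, 7.05 and 6.50 on the S153E-RKIP arrays and 6.17, 6.18 and 6.23 on the control arrays (difference 0.45, SE 0.15, limma adjusted p = 0.212). S153E-RKIP replicate 2 was the highest, and without it the difference was 0.25. The others were MMP2, another gelatinase (0.20, and 0.095 with the mean of probe sets), and MMP14 (0.17), a protease on the cell surface. All 8 genes of propeptide removal had a difference above 0, with a median of 0.13. Of these, 7 were at or below the median signal, where 68.9% of all genes had a difference above 0. An unadjusted p under 0.05 was seen in 3 of the 8, all 3 higher, beside 7.75% of all genes in that direction. A list this short gives an imprecise share. Apart from BMP1 these were the dim genes TLL1 (mean signal 3.74) and ADAMTS3. The largest difference was 0.46 in ADAMTS3, a dim gene (mean signal 4.49) with overlapping groups (SE 0.16, limma adjusted p = 0.220). BMP1, the procollagen C-proteinase, had 6.65, 6.85 and 7.04 on the S153E-RKIP arrays and 6.58, 6.55 and 6.44 on the control arrays. These groups did not overlap (difference 0.32, SE 0.098, limma adjusted p = 0.177), but the 7 probe sets of BMP1 differed by -0.011 to 0.32, with 0.13 for their mean and 0.064 without probe sets ending in _x_at or _s_at.

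Of 13 prolyl and lysyl modifiers, which stabilise the helix and prepare crosslinks, 1 had an unadjusted p under 0.05, beside 15.7% of all genes. It was P4HA2, a subunit of prolyl hydroxylase, with 9.05, 9.33 and 9.40 on the S153E-RKIP arrays and 8.80, 9.04 and 8.87 on the control arrays (difference 0.36, SE 0.10, limma adjusted p = 0.157). The mean of its probe sets gave 0.19. Of the 9 folding and secretion genes none did. The lowest p belonged to MIA3, which loads procollagen at the exit from the endoplasmic reticulum, with 7.94, 8.20 and 8.32 on the S153E-RKIP arrays and 8.28, 8.42 and 8.28 on the control arrays (difference -0.18, SE 0.099, limma adjusted p = 0.426). The groups overlapped for MIA3, and without S153E-RKIP replicate 1 the difference was -0.070. Of the 9 receptors 1 did, GP6, the collagen receptor of platelets, at 3.79, 3.88 and 3.88 on the S153E-RKIP arrays and 3.68, 3.72 and 3.75 on the control arrays (difference 0.13, SE 0.056, limma adjusted p = 0.302).

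**Figure D5:**
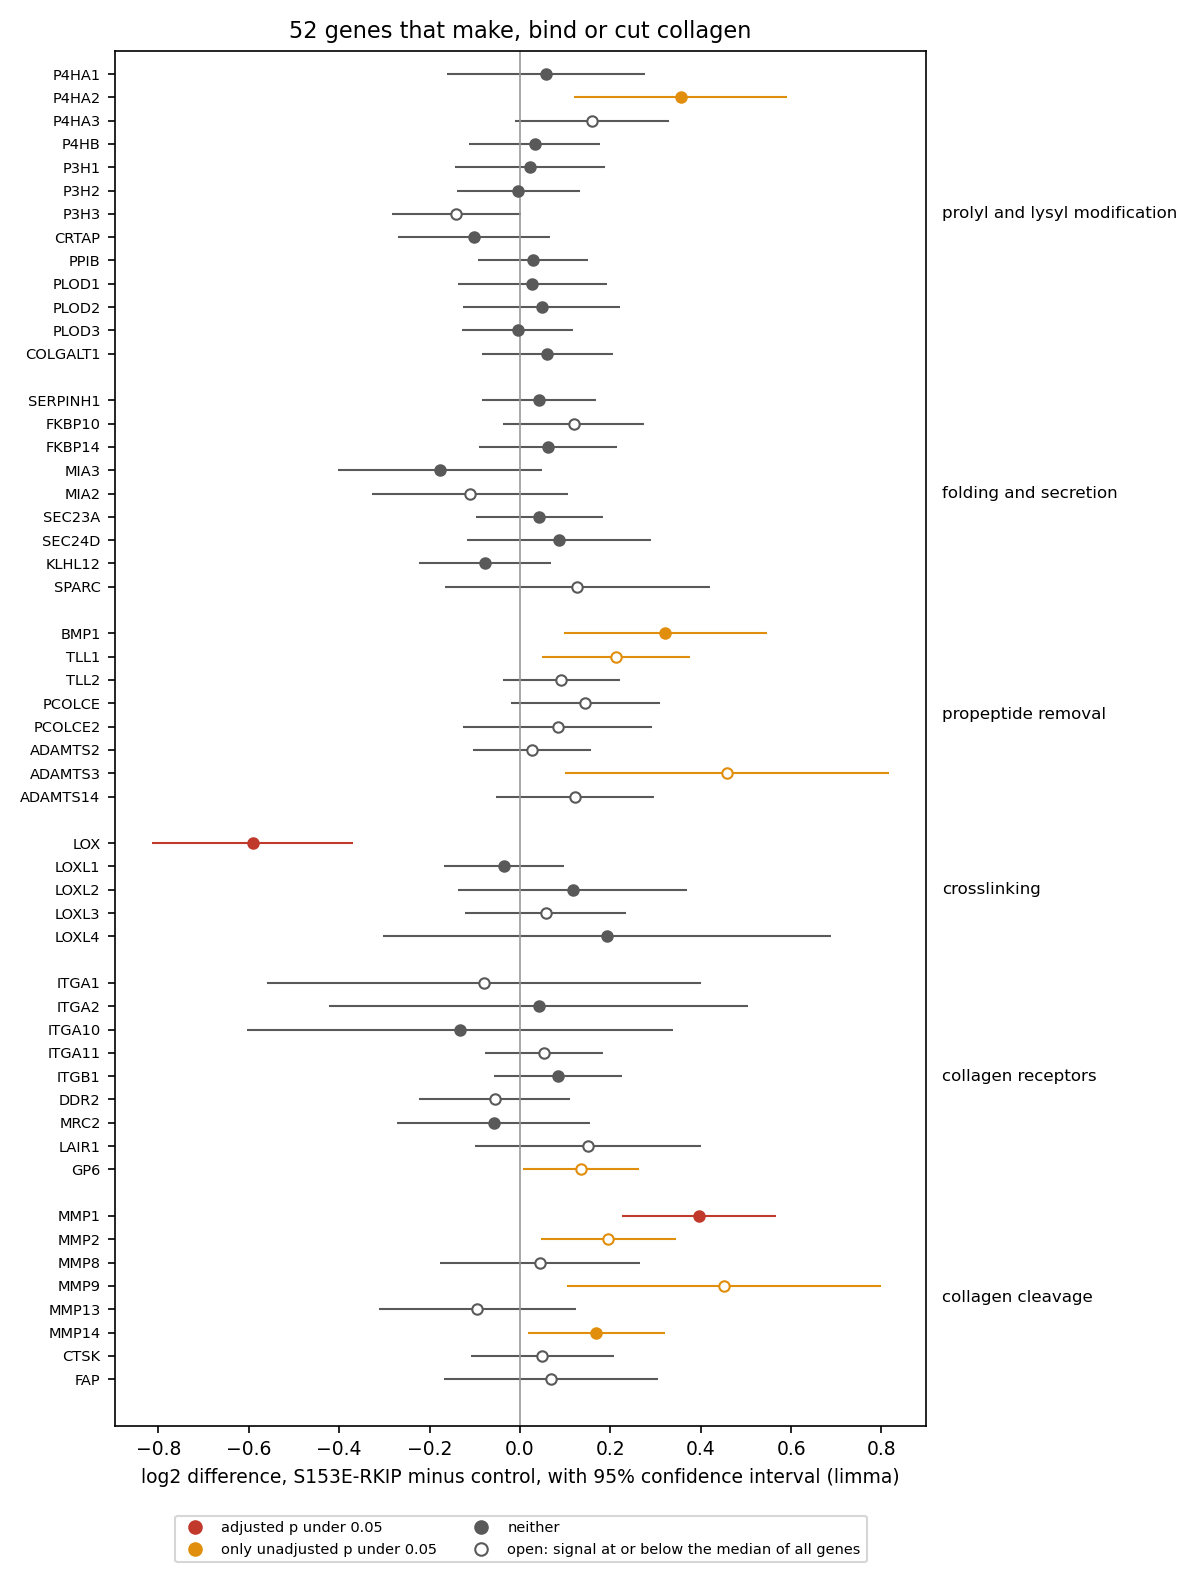
Log2 difference, S153E-RKIP minus control, of 52 genes that make, bind or cut collagen, with 95% confidence intervals from limma, by role. Red marks an adjusted p under 0.05 (LOX at -0.59 and MMP1 at 0.40), orange only an unadjusted p under 0.05, and open circles a signal at or below the median of all genes.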

How the data were processed

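Total RNA from 6 cell samples, 3 per group by their titles, was hybridised to HG-U133 Plus 2.0 arrays. The deposited values are log2 signals, 1 per probe set and array. The submitters' processing notes name RMA, which corrects background, quantile-normalises the arrays together and summarises probes. Version and annotation of RMA were not given in the sources used here. Array medians ran from 5.60 to 5.67. A principal component analysis put 46.1% of the variance on the first component, and S153E-RKIP replicate 1 stood apart on the second (21.6%).

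From these values, 1 probe set per gene was kept (the brightest of those with a single symbol), with no filter on dim genes. S153E-RKIP was compared with control in limma 3.58.1 (lmFit, eBayes, two-sided) under R 4.3.3, with Benjamini-Hochberg adjustment over all 19775 genes and calls at an adjusted p under 0.05. The fit was tested on simulated data. Chain pairs were compared by exact permutation tests in scipy 1.17.1. Promoters are from RefSeq (GRCh38.p14), and motifs were searched over both strands. Named with every array were collagen genes called or with an unadjusted p under 0.05, the 8 brightest, the brightest of each class, called genes of the pathway lists and the lowest p of each list. COL4A5, COL6A2, MMP2, MMP9, MMP14 and ADAMTS3 were added after their values were seen. The members and lists were chosen with earlier results of these data known. Same-numbered arrays had correlations of 0.13, 0.26 and -0.044 in their deviations from the group means, so the numbers were not taken as pairs. Alternatives were other probe set rules, dim-gene filters, normalisations, variance models, the replicate number as a block, a stricter threshold, and fits without each array.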

Additional observations from a re-analysis of the deposited data

How the results depend on the processing

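The median collagen difference, 0.021, ran from -0.016 (equal medians) to 0.047 (without S153E-RKIP replicate 3), while the only collagen call did not hold under many settings. The median was below 0 at equal medians, with both dim-gene filters and after loess. These shifts are smaller than 0.12, the SD between replicates of the median collagen signal. That SD is wide beside the median difference, so it is a weak yardstick. The 1 collagen call became 0 without probe sets ending in _x_at or _s_at, after quantile normalisation again, with the replicate block, after removal of the intensity trend by loess (chosen after seeing the data), at an adjusted p under 0.01, and without any 1 of the 6 arrays. Tested over all probe sets, 226237_at was not called either, though the dimmer COL8A1 probe sets were. The call was kept with the mean of probe sets, with both dim-gene filters, at equal medians, with trend and robust estimation, and with array weights. Over all genes, the 376 calls became 237 without probe sets ending in _x_at or _s_at, 600 with trend and robust estimation, 147 at an adjusted p under 0.01, 332 with the replicate block, and 124 to 303 without 1 array. The lowest count, 124, was without control replicate 1, followed by 130 without control replicate 3, 152 without control replicate 2, 171 without S153E-RKIP replicate 2 and 216 without S153E-RKIP replicate 3. The pathway lists' 2 calls became 1 without probe sets ending in _x_at or _s_at, since all 3 probe sets of LOX end in _s_at and drop out, 0 at an adjusted p under 0.01, and 0 to 1 without 1 array. With the replicate block COL8A1 had a limma adjusted p of 0.0624, and 4 of the 6 arrays correlated best with their own number, which is a hint from the data and not the design.

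Signs turned only in collagen genes that were not called. COL6A1 became 0.010 with the mean of probe sets and 0.24 without probe sets ending in _x_at or _s_at, where COL7A1 became -0.031. COL13A1 became 0.0071 after quantile normalisation again and 0.0025 with array weights, and ran from -0.096 to 0.088 without 1 array. COL4A2 became 0.011 after quantile normalisation again and 0.0032 after loess, and ran from -0.076 to 0.0055 without 1 array. COL18A1 ran from -0.089 to 0.016 without 1 array. The cause was not tested for any of these changes. Precision is limited by the number of arrays, and dim probe sets near background can understate a change.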
